A study of Arabidopsis thaliana with 2 samples.

Results

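The GASA genes (gibberellic acid-stimulated in Arabidopsis) encode small secreted peptides, and 10 of them, GASA1 to GASA6, GASA9, GASA10, GASA11 and GASA14, were followed here by locus identifier among 33602 loci measured in the stem of Arabidopsis thaliana. Main stems of hdt1 mutants and of wild-type plants, grown in long days and taken 35 days after flowering, gave 1 RNA-seq library per genotype. The product of HDT1 is a histone deacetylase of the HD2 type, which occurs in plants alone. The sources used here give neither the hdt1 allele nor the accession or the number of plants per library. Without replicates no test between the genotypes was possible, and every difference below is one between these libraries. In what follows, hdt1 and wild type stand for these libraries, which hold 23070249 counted reads or read pairs in hdt1 and 21728500 in wild type.

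GASA peptides were first known from a tomato gene, GAST1, whose transcript accumulates when gibberellin is supplied, and most plant members respond to gibberellin or to hormones that act against it. Each carries a signal peptide, a variable stretch and a cysteine-rich domain at the C-terminal end, and the peptides act in the cell wall space or the secretory path in cell division, cell elongation, flowering and redox balance. Gibberellin itself is perceived by GID1 receptors, which bring about the destruction of the DELLA repressors and so release stem elongation.

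All 10 loci were in the table. Values are the authors' FPKM, fragments scaled by gene length and library total, which allows levels of different genes to be compared. Above 0 in both libraries were 7 loci, each with a mean of at least 1 FPKM. The other three, GASA2, GASA3 and GASA11, were listed at 0 in both. The RefSeq annotation of TAIR10.1 names GASA1 to GASA6 and GASA14 by symbol or synonym and describes the remaining loci, AT1G22690 (GASA9), AT5G59845 (GASA10) and AT2G18420 (GASA11), as gibberellin-regulated family proteins. Folds are ratios of the FPKM values, hdt1 over wild type, with a 95% exact conditional interval (Clopper-Pearson) from the reads behind them in brackets. These intervals cover counting error in the libraries and nothing else. Counts of genes 2-fold higher or lower, and all log2 ratios, are on a scale with 1 FPKM added to both values, where low genes show smaller differences.

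GASA5 and GASA4 had higher values in hdt1, by 2.90-fold and 2.53-fold. GASA14 and GASA9 were higher by smaller amounts, 1.41-fold and 1.28-fold, and the intervals of GASA10, GASA1 and GASA6 included 1. All 7 detected members had a log2 ratio above 0, where 46.0% of all genes compared did. At least 2-fold higher values were found for 2 of these 7, against 2.32% of the 17811 genes compared, and 2-fold lower values for none, against 0.741%. The median log2 ratio of the 7 was 0.47, and that of all genes compared was -0.03. The members and the gene lists below were chosen with earlier results of these data known. Shares over all genes, here and below, are therefore given as description and are no test. In whole stems more cells of a type and more RNA per cell cannot be told apart.

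The proteins show what the family shares. In the RefSeq proteins, translated here from the annotated coding exons with the longest isoform taken, the last 60 residues hold 12 cysteines in every one of the 10. The spacing between neighbouring cysteines was the same in 8 of them, and GASA10 and GASA14 each have 1 additional residue in 1 gap. The proteins other than GASA14 are short, between 89 residues (GASA10) and 119 residues (GASA9). GASA14 has 275 residues, with a proline-rich stretch before the domain in which 77 of 215 residues, or 35.8%, are prolines. Over the last 60 residues GASA4 and GASA6 are 75% identical, GASA5 and GASA6 73.3%, and GASA4 and GASA5 66.7%. The least alike pair of detected members, GASA4 and GASA1, is 43.3% identical. GASA6, the nearest relative of both GASA4 and GASA5 among the detected members, had a log2 ratio of 0.14.

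**Figure D1:**
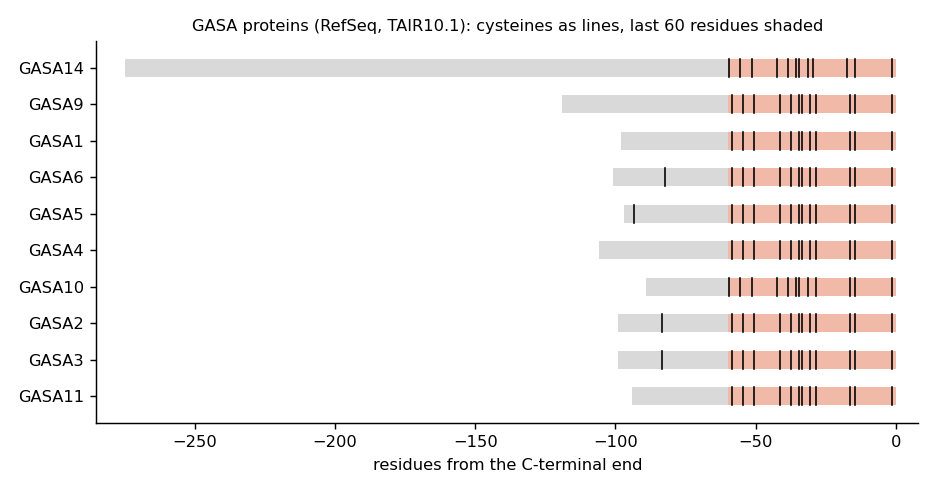
Each bar is a GASA protein from RefSeq (TAIR10.1), aligned at its C-terminal end, with length in residues on the horizontal axis. Black lines mark cysteines and the shaded part is the last 60 residues, which hold 12 cysteines in each of the 10 proteins, whereas GASA14 extends to 275 residues.

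Reads that match a pair of genes equally well cannot be assigned with certainty. The longest stretch of identical coding bases between any pair of detected members was 21 bases, between GASA5 and GASA6, and between GASA2 and GASA3, which lie next to each other on chromosome 4, it was 35 bases. GASA1 and the undetected GASA11 share a stretch of 27 coding bases. Untranslated sequence was not compared. The sources used here do not state the read length. GASA9 overlaps the end of AT1G22700 on the other strand in the annotation, and the strand setting of the counting is not given. AT1G22700, which encodes a tetratricopeptide repeat protein, was at 52.3 FPKM in hdt1 and 64.5 FPKM in wild type, 1.23-fold lower (1.15 to 1.33). What reads from AT1G22700 add to the GASA9 values was not tested. In the annotation GASA6 overlaps AT1G74675 on the other strand, for which no value is used here.

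GASA4 (AT5G15230, on chromosome 5) is induced by gibberellin, is expressed in dividing tissue and acts in floral identity and redox balance. It was at 9.07 FPKM in hdt1 and 3.59 FPKM in wild type, a 2.53-fold difference (1.77 to 3.66) from 118 reads in hdt1 and 44 in wild type. Its read numbers are known only up to a multiple, and with 177 reads in hdt1 and 66 in wild type, which a gene length of 846 bases would give in place of 564, the interval is 1.89 to 3.40. The log2 ratio of GASA4 was 1.13, and 1.67% of all genes compared had one at least as high. Among genes with a mean FPKM within 2-fold of its own and a length within 20%, 12 of 284 did, or 4.23%. With the length of 846 bases it was 26 of 613, or 4.24%.

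GASA5 (AT3G02885, on chromosome 3) is known as a repressor of flowering and of tolerance to heat. It was at 10.2 FPKM in hdt1 and 3.52 FPKM in wild type, 2.90-fold higher (2.09 to 4.09) from 151 reads in hdt1 and 49 in wild type. The log2 ratio of GASA5 was 1.31, a value that 179 genes, or 1.0% of those compared, reached or passed. Of the 395 genes like it in level and length, 9 did, or 2.28%. In both libraries GASA4 and GASA5 lay side by side. The ratio of GASA5 to GASA4 was 1.13 (0.88 to 1.45) in hdt1, and the ratio of GASA4 to GASA5 was 1.02 (0.66 to 1.56) in wild type, so that their order cannot be told from the reads.

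GASA6 (AT1G74670, on chromosome 1) promotes elongation of embryonic axis cells at germination and acts with the expansin EXPA1. It was at 10.7 FPKM in hdt1 and 9.64 FPKM in wild type, 1.11-fold higher (0.882 to 1.41) from 162 reads in hdt1 and 137 in wild type. Wild type thus had GASA6 2.69-fold (1.90 to 3.86) above GASA4, the next lower member there. In the hdt1 library GASA6 was 1.05-fold (0.836 to 1.32) above GASA5, the next lower member in that library. The gap that set GASA6 apart from GASA4 and GASA5 in wild type was not detectable at this depth in hdt1.

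GASA14 (AT5G14920, on chromosome 5), whose product acts in leaf expansion and in the tolerance of reactive oxygen, was the most abundant member in both libraries. It was at 42.9 FPKM in hdt1 and 30.4 FPKM in wild type, 1.41-fold higher (1.29 to 1.55) from 1166 reads in hdt1 and 777 in wild type. Its log2 ratio was 0.49, and 9.04% of the genes compared had one at least as high. Of 1529 genes like it in level and length, 5.95% had a ratio at least as high, and their median log2 ratio was -0.13. GASA14 is the member measured with the most reads, and its interval is the narrowest.

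GASA9 (AT1G22690, on chromosome 1) was the second in level in both libraries, with 30.5 FPKM in hdt1 and 23.9 FPKM in wild type. It was 1.28-fold higher (1.09 to 1.5) from 369 reads in hdt1 and 272 in wild type. GASA1 (AT1G75750, on chromosome 1), one of the first GASA genes described and induced by gibberellin, was at 21.5 FPKM in hdt1 and 18.5 FPKM in wild type, 1.16-fold higher (0.983 to 1.38) from 316 reads in hdt1 and 256 in wild type. The lowest detected member, GASA10 (AT5G59845, on chromosome 5), whose product is found in the cell wall, was at 3.89 FPKM in hdt1 and 2.53 FPKM in wild type. Its fold of 1.54 (0.981 to 2.45) rests on 54 reads in hdt1 and 33 in wild type, and a difference was not detectable at this depth. Of the 7 detected members, 4 had an interval wholly above 1 (GASA4, GASA5, GASA9 and GASA14), against 25.1% of all genes compared. Intervals that include 1 were found for 3, against 45.7%, and intervals below 1 for none, against 29.2%. With FPKM sums made equal, or with either of 2 other scalings, GASA1 and GASA10 also had intervals above 1, which made 6, against 28.7% to 30.9% of all genes.

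**Figure D2:**
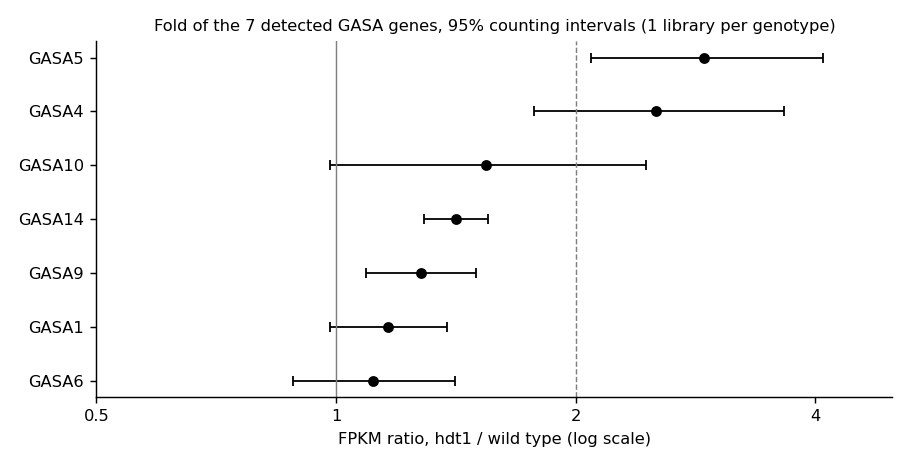
Points are FPKM ratios of hdt1 over wild type for the 7 detected GASA genes on a log axis, and bars are 95% counting intervals from 1 library per genotype. The points of GASA5 and GASA4 lie past the dashed 2-fold line, which the interval of GASA4 crosses. GASA14 and GASA9 have intervals above 1, and those of GASA10, GASA1 and GASA6 include 1.

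GASA2 (AT4G09610), GASA3 (AT4G09600) and GASA11 (AT2G18420) had no reads in either library. Transcripts of GASA2 and GASA3 are known from siliques and dry seeds. For a count of 0 a limit of 3 reads was set, with the RefSeq coding length in place of the unknown gene length. That limit corresponds to 0.433 FPKM in hdt1 and 0.460 FPKM in wild type for GASA2 and GASA3. For GASA11 it corresponds to 0.456 FPKM in hdt1 and 0.484 FPKM in wild type. The 2-sided 95% Poisson interval drawn for the detected members would reach higher for a count of 0. None of 10 seed marker genes, mostly for storage and oil body proteins, reached a mean of 1 FPKM, and 7 of them were at 0 in both libraries.

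The order of the detected members by level was nearly the same in the libraries, with GASA14 first, then GASA9, GASA1 and GASA6, and GASA10 last. In the hdt1 library GASA14 was 1.41-fold (1.25 to 1.58) above GASA9, GASA9 was 1.42-fold (1.22 to 1.65) above GASA1, and GASA1 was 2.0-fold (1.65 to 2.44) above GASA6. The first and second of these steps in wild type were 1.27-fold (1.11 to 1.46) and 1.29-fold (1.08 to 1.54), and GASA1 stood 1.92-fold (1.55 to 2.38) above GASA6. Below GASA6 the picture differed, since GASA5 and GASA4 stood close to GASA6 in hdt1 and close to GASA10 in wild type. In the hdt1 library GASA4 was 2.33-fold (1.67 to 3.28) above GASA10. In the wild-type library GASA5 was 1.39-fold (0.879 to 2.24) above GASA10, a difference within counting error.

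**Figure D3:**
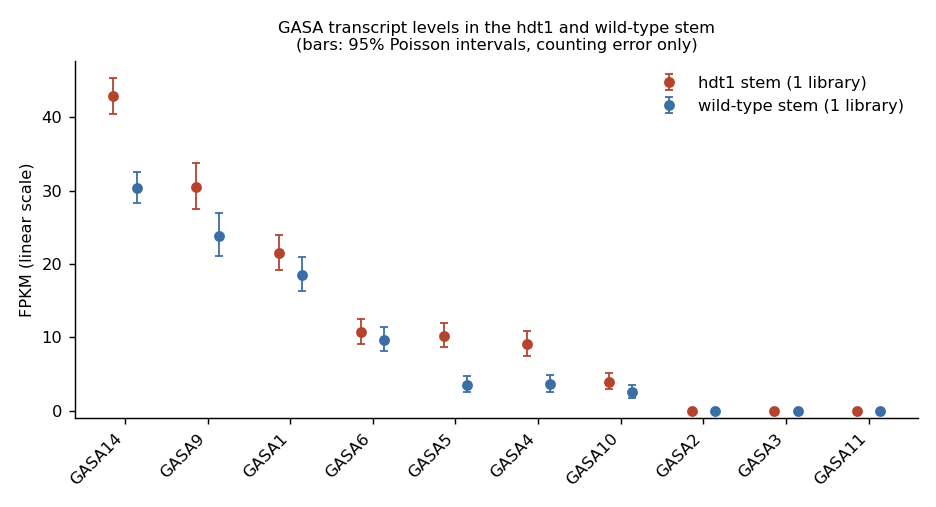
FPKM of the 10 GASA genes on a linear axis in hdt1 (red, left of each pair) and the wild-type library (blue, right), ordered by the hdt1 level, with 95% Poisson intervals that cover counting error only. GASA14 is highest in both, GASA5 and GASA4 reach 10.2 and 9.07 FPKM in hdt1 against 3.52 and 3.59 FPKM in wild type, and 3 genes are at 0.

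The 10 genes summed to 129 FPKM in hdt1 and 92.0 FPKM in wild type, a ratio of 1.40 with a counting interval of 1.31 to 1.5 by the delta method. GASA14, the most abundant member, made up 33.3% of that sum in hdt1 and 33.0% in wild type, and it gave 34.1% of the difference between the sums. The shares of GASA4 and GASA5 were larger in hdt1, 7.04% against 3.9% in wild type for GASA4 and 7.94% in hdt1 against 3.83% in wild type for GASA5. GASA1 took 16.7% of the sum in hdt1 and 20.1% in wild type. GASA6 took 8.33% in hdt1 and 10.5% in wild type.

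**Figure D4:**
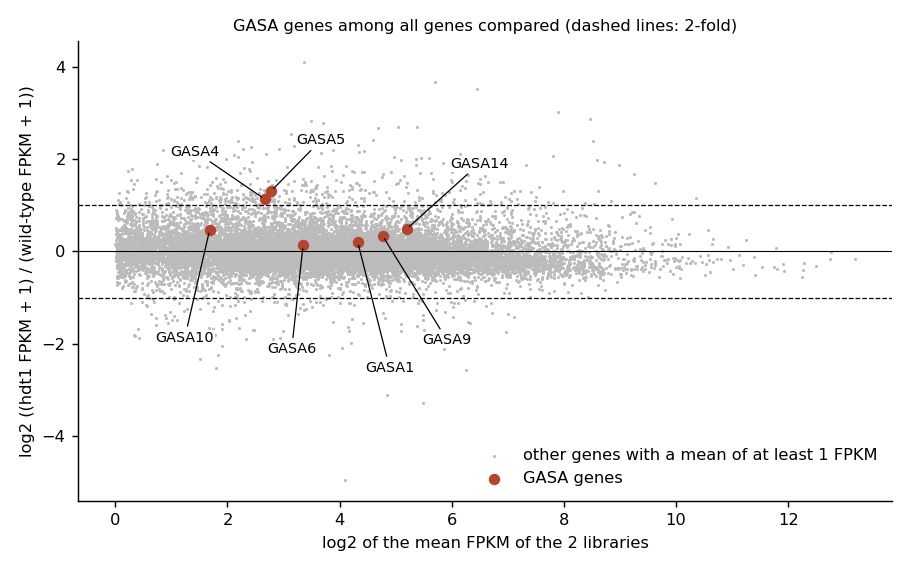
Each grey point is a gene with a mean of at least 1 FPKM, with the log2 of its mean FPKM on the horizontal axis and the log2 ratio of hdt1 over wild type, 1 FPKM added, on the vertical axis. The 7 detected GASA genes (red) lie above 0, GASA5 (1.31) and GASA4 (1.13) beyond the dashed 2-fold line.

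Of the other genes that RefSeq describes as gibberellin-regulated family proteins, 5 were followed. AT2G14900 was at 3.47 FPKM in hdt1 and 3.19 FPKM in wild type, 1.09-fold higher (0.716 to 1.66). AT1G10588, AT2G30810, AT2G39540 and AT3G10185 were at 0 in both. There are 12 cysteines in the last 60 residues of each of these proteins.

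The genes next to the GASA genes were looked at in the same way. For each detected member the nearest gene on either side with a mean of at least 1 FPKM was taken in RefSeq order, which gave 14 genes. None of them was 2-fold higher or lower, which is near the 2.32% and 0.741% of all genes compared. Their median log2 ratio was -0.12, with a range from -0.39 to 0.51, and 5 of the 14 were above 0, against 46.0% of all genes compared. AT1G22700, which overlaps GASA9, is among the 14. The largest belonged to AT3G02880, a leucine-rich repeat kinase gene beside GASA5, at 23.8 FPKM in hdt1 and 16.4 FPKM in wild type, 1.45-fold higher (1.33 to 1.58). The gene on the other side of GASA5, AT3G02890, was 1.29-fold higher (1.09 to 1.53). Beside GASA4, AT5G15220 was at 11.5 FPKM in either library, and AT5G15240 was 1.34-fold higher (0.957 to 1.90). Beside GASA14, AT5G14910 had a log2 ratio of -0.39 and AT5G14930 one of 0.23. Both neighbours of GASA10 were lower, AT5G59840 with a log2 ratio of -0.31 and AT5G59850 with one of -0.36.

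The gibberellin pathway was set beside its responsive genes through lists of receptors and repressors, of synthesis enzymes and of inactivating enzymes. Of 14 genes for perception and DELLA control, none was 2-fold higher or lower, and 5 had a log2 ratio above 0 and 9 below. These counts are near the shares over all genes compared, of which 2.32% were 2-fold higher, 0.741% were 2-fold lower and 46.0% were above 0. Counting intervals were above 1 for 4 of the 14, below 1 for 7 and included 1 for 3. The shares over all genes were 25.1%, 29.2% and 45.7%. The median of the list was -0.18. The receptor gene GID1B was at 5.16 FPKM in hdt1 and 11.2 FPKM in wild type, a log2 ratio of -0.99. Without the added FPKM it was 2.18-fold lower (1.85 to 2.57). SNE, an F-box gene related to SLY1, was at 4.4 FPKM in hdt1 and 7.51 FPKM in wild type. RGL3, a DELLA gene, was at 5.94 FPKM in hdt1 and 2.63 FPKM in wild type, a log2 ratio of 0.94 and a fold of 2.26 (1.81 to 2.83). The abundant DELLA gene RGA was at 107 FPKM in hdt1 and 104.0 FPKM in wild type. SCL3, a GRAS gene that acts against the DELLA proteins, was at 7.82 FPKM in hdt1 and 12.4 FPKM in wild type.

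Among the 14 synthesis genes 5 entered, all with log2 ratios below 0, where 46.0% of all genes compared were above 0. None was past 2-fold, where 2.32% of all genes were higher and 0.741% lower, and the median was -0.11. Intervals were below 1 for 2 of the 5 and included 1 for 3, against 29.2% and 45.7% of all genes. GA20OX1, an enzyme of the late steps, was at 2.47 FPKM in hdt1 and 4.28 FPKM in wild type, 1.73-fold lower (1.28 to 2.35). Of the 7 gibberellin 2-oxidases 3 entered. GA2OX8 (1.32) and GA2OX6 (1.08) were 2-fold higher on the log2 scale, against 2.32% of all genes compared. GA2OX2 (-1.69) was 2-fold lower, against 0.741%. The median of these 3 was 1.08, but it was 0.12 with no filter on low values and 0.59 with 5 FPKM added. GA2OX2, the most abundant, was at 20.9 FPKM in hdt1 and 69.9 FPKM in wild type, and the 7 genes summed to 41.9 FPKM in hdt1 and 77.6 FPKM in wild type, opposite in direction to the median. Gibberellin itself was not measured.

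The alpha-expansins, wall-loosening proteins whose genes also include gibberellin-responsive ones, had a median log2 ratio of 0.43 over the 9 of 19 that entered. That median was 0.19 with no filter on low values and 0.69 for means of 5 FPKM or more. Of the 9, 2 were 2-fold higher and none lower, against 2.32% and 0.741% of all genes compared. Intervals were above 1 for 6 and included 1 for 3, against 25.1% and 45.7% of all genes. EXPA1, which acts with GASA6 at germination, was at 47.4 FPKM in hdt1 and 25.6 FPKM in wild type, 1.85-fold higher (1.69 to 2.03). EXPA4 had a log2 ratio of 1.30 and EXPA6 one of 1.07. No test of a difference between the expansin and GASA lists is possible with these libraries.

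**Figure D5:**
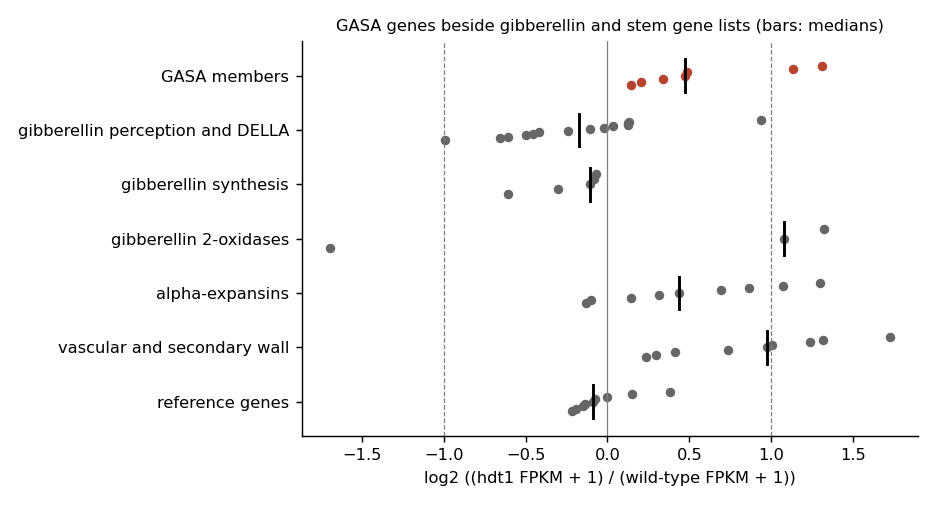
Each point is a gene with a mean of at least 1 FPKM, placed by its log2 ratio of hdt1 over wild type with 1 FPKM added, and black bars are list medians. The GASA genes (red, median 0.47) lie above 0, as do most alpha-expansins (0.43) and the vascular and secondary wall genes (0.97), while the genes for perception and DELLA control have a median of -0.18.

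Markers of stem tissues were set beside the GASA genes. HDT1 itself was at 5.19 FPKM in hdt1 and 52.6 FPKM in wild type. All 9 vascular and secondary wall markers, among them CESA4, CESA7, CESA8, XCP1, XCP2 and SUC2, were detected, with summed levels of 553 FPKM in hdt1 and 403 FPKM in wild type. Their log2 ratios were all above 0, against 46.0% of all genes compared, and the median was 0.97. Past the 2-fold limit were 4 of the 9, against 2.32% of all genes. PP2-A1 and SUC2, the most abundant of the 9, were 1.18-fold (1.14 to 1.22) and 1.33-fold (1.28 to 1.38) higher. CESA8, CESA4 and CESA7 were 2.55-fold, 2.65-fold and 3.59-fold higher. Of 4 epidermis markers 2 were above 0 and 2 below, with intervals above 1 for 2 and below 1 for 2. LTP1 was 1.78-fold higher (1.53 to 2.07) and CER1 1.44-fold lower (1.26 to 1.64). Their summed levels, 258 FPKM in either library, hide these opposite differences. Of 3 leaf photosynthesis genes 1 was above 0 and 2 below, with a median of -0.09. The part of the vascular markers in the GASA differences was not tested. The 9 reference genes had a median log2 ratio of -0.09 and a range from -0.22 to 0.38, none past 2-fold. Flower markers were low, with AG, AP3 and PI at no more than 0.252 FPKM in either library and SEP3 at 1.63 FPKM in hdt1 and 0.907 FPKM in wild type.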

How the data were processed

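Both libraries stand in 1 deposited table of 33669 features, in FPKM as the authors computed it, which the file headers and value ranges show. For the reads, Bowtie2 2.2.3, TopHat2 2.0.12 and HTSeq 0.6.1 appear in a list of tools per the submitters' processing notes. Genome build, annotation and strand setting are not stated there, so no coordinates are given. Left out were 67 features without a locus identifier, and RefSeq TAIR10.1 held 32835 of the loci.

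Low FPKM values are whole multiples of the value of 1 read, and the commonest divisor of these values gave the library totals. The read numbers used are the smallest that give a whole gene length of at least the RefSeq coding length, a step checked on simulated data. For GASA4 a larger multiple is also possible.

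Compared were genes whose FPKM averaged at least 1 over both libraries. Named by rule are the GASA genes, HDT1, genes of the gibberellin lists and up to 3 genes of each other list with the largest absolute log2 ratio. Other genes (XCP1, XCP2, SUC2, PP2-A1, AG, AP3, PI, and overlapping or flanking genes) were named after their values were seen. The members and lists were chosen with earlier results of these data known. Python 3.11.15, SciPy 1.17.1, pandas 2.3.3 and Biopython 1.88 were used.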

Additional observations from a re-analysis of the deposited data

How the results depend on the processing

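All 7 detected GASA genes had log2 ratios above 0 under every pseudocount, scaling and length setting tried, and 6 of 6 did where a mean of at least 5 FPKM left out GASA10. The count of 2 members at least 2-fold higher was 0 with a pseudocount of 5 FPKM, a scale on which GASA5 was at 0.84 and GASA4 at 0.71, and 0 at a 4-fold limit. Of all genes compared, 0.938% passed with a pseudocount of 5 FPKM and 0.208% at a 4-fold limit, against 2.32% as reported. The count stayed at 2 under the other 8 settings, where the share of all genes ran from 1.29% with no filter to 7.04% at a 1.5-fold limit. The count of members lower stayed at 0 under all 10, where the number of all genes lower ran from 11 at a 4-fold limit to 572 at a 1.5-fold limit, of 17811. The median log2 ratio of the members ran from 0.27 with no filter, where the 3 genes at 0 count, to 0.53 with the length trend removed. Of the lists, the 2-oxidases had a median of 1.08 as reported, 0.59 at a pseudocount of 5 and 0.12 without the filter. The expansin median, 0.43 as reported, was 0.19 with no filter and 0.69 for means of 5 FPKM or more, and the vascular median, 0.97 as reported, was 0.73 with a pseudocount of 5. The median of the 3 leaf genes, -0.09 as deposited, was -0.026 with equal FPKM sums, -0.034 with median centring, -0.048 with equal sums without the most abundant and organelle genes, and 0.049 with the length trend removed; the cause was not tested. Read numbers limit GASA10, GASA4 and GASA5 most, with 33, 44 and 49 reads in the wild-type library. For GASA4 the larger multiple would give 66 reads there. No paired analysis was possible because each genotype has 1 library.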
